A study of Mus musculus with 3 samples.

Results

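The genes described here are 10 mouse genes of platelet G-protein and Rap1 signalling, chosen by name out of 22367 protein-coding genes of the annotation: Gnaq, Gna13, Gnai2, Rgs18, Rgs10, Rasgrp2, Rap1b, Rap1a, Fermt3 and Prkcq. The rule lists them by name, and all 10 were found. For each gene, the reads of a FLI1 ChIP library, a RUNX1 ChIP library and an input library were counted within 2 kb of the gene start and in 400-bp bins over its territory, the gene body and 20 kb to either side. The cells were mature megakaryocytes (MK), the precursors of platelets, grown with thrombopoietin for 5 days from the liver of wild-type CD1 mouse embryos, which the labels give as E15. TER119, GR1 and CD11b positive cells were depleted and the large cells were collected over an albumin gradient. Each antibody has 1 library, and precipitates from at least 3 replicates were pooled before sequencing. With 3 libraries of 1 pool each, the variation between precipitates is unknown, no test between conditions was made, and every interval covers counting error only.

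In a platelet, thrombin, thromboxane and ADP bind receptors that activate heterotrimeric G proteins. Their alpha subunits raise calcium and diacylglycerol, reshape the cytoskeleton, or lower cyclic AMP, and RGS proteins end the signal by speeding GTP hydrolysis. Calcium and diacylglycerol then act on exchange factors and protein kinase C, the small GTPase Rap1 is loaded with GTP, and talin and kindlin bind the integrin tails so that the platelet can hold fibrinogen. FLI1 is an ETS family transcription factor that recognizes a GGAA core, and RUNX1 is a Runt domain factor; both are needed for MK to mature.

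After reads on the mitochondrial chromosome and repeated input positions were left out, 62946422 FLI1, 3973856 RUNX1 and 21745220 input reads remained. A 400-bp bin with at least 1 input read held on average 10.9 FLI1, 0.684 RUNX1 and 3.98 input reads, which are called the genome-wide rates below. RUNX1 values thus rest on far fewer reads than FLI1 values. The RUNX1 file used here also holds far fewer reads than the study lists for that library, so every RUNX1 count, and every territory without a RUNX1 call, is that of the reads in this file alone. Gene starts of the cell type markers were checked for the label, since expression is not measured in these files. FLI1 was 1.5-fold or more above scaled input at 12 of 14 megakaryocyte, 2 of 8 erythroid, 5 of 10 granulocyte and macrophage and 0 of 8 hepatocyte marker genes, with medians of 2.45, 1.14, 1.27 and 0.938. For RUNX1 the counts were 8, 3, 2 and 1 of the same lists, with medians of 1.56, 1.35, 0.794 and 0.846. Of all protein-coding genes with at least 1 input read at the start, 39.9% reached 1.5-fold for FLI1 and 33.6% for RUNX1.

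The DNA under the highest FLI1 summits of the 4 genes where these summits were tallest is given first, because these sites recur in the results. The summit of a region is its position of deepest coverage once every read is extended to 150 bp. Each window holds 100 bases of the plus strand of mm9. Capitals mark the ETS motif CCGGAA or CAGGAA, the RUNX motif TGTGGT or TGCGGT and the core GGAA, on either strand. The windows are chr19:7092710-7092809 in an intron of Fermt3, chr19:6402078-6402177 in an intron of Rasgrp2, chr2:11161305-11161404 in an intron of Prkcq and chr1:146622608-146622707 just upstream of Rgs18. The last window, chr19:7093901-7094000, covers the start of Fermt3 and is the region called for both factors with the highest FLI1 summit.
Fermt3, 1199 bp downstream of the start: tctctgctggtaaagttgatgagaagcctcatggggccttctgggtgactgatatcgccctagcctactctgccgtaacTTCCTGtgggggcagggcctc
Rasgrp2, 2788 bp downstream of the start: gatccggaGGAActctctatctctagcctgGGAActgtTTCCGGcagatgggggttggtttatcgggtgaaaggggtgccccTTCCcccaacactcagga
Prkcq, 67615 bp downstream of the start: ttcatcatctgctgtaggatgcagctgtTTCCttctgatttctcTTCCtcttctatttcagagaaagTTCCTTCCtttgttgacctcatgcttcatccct
Rgs18, 93 bp upstream of the start: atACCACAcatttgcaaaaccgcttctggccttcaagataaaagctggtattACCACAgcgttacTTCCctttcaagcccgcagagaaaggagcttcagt
Fermt3, 8 bp downstream of the start: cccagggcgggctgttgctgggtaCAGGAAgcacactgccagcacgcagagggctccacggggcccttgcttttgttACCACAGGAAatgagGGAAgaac
Both Fermt3 windows and the Rasgrp2 window hold an ETS motif. The window at the Fermt3 start also holds a RUNX motif, which overlaps an ETS motif. The Rgs18 window holds the RUNX motif at 2 places and a GGAA core but neither ETS sequence searched, and the Prkcq window holds 4 GGAA cores and neither motif. A match is a description of letters and not a shown binding site.

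At the gene starts, FLI1 reads were above scaled input for each of the 10 genes. Within 2 kb of their starts the genes together held 3986 FLI1 reads and 410 input reads, a ratio of 3.36 after scaling to library depth (exact 95% interval 3.03 to 3.73). The median of the genes was 2.91, compared with 1.26 over 21877 protein-coding genes with at least 1 input read at the start. All 10 genes were 1.5-fold or more above input, a fold that 39.9% of those genes reached. A GC correction divided each ratio by the median ratio of gene starts of similar GC content. Its values are thus folds over such starts and not over input alone, and Gnaq (1.29) and Prkcq (1.13) were below 1.5 on that scale. A window of 500 bp ended the call over input at Gnai2 and Prkcq. Thinning FLI1 to the depth of RUNX1, in 1 random draw of reads, put Rgs10 at 0.883 and Prkcq at 1.46. At that depth each ratio rests on few FLI1 reads. RUNX1 was also above input, with 167 reads and a summed ratio of 2.23 (1.85 to 2.67), a median of 2.19 against 1.17 over all genes. Of the 10 genes, 9 reached 1.5-fold for RUNX1, compared with 33.6% of all genes, and Gnai2 did not. On the GC-corrected scale Rasgrp2 (1.32) and Prkcq (1.40) were below 1.5 for RUNX1 too. The window of 500 bp ended the RUNX1 call over input at Rasgrp2 (0.995), and plus-strand reads alone ended it at Prkcq (1.22). Gnai2 instead passed 1.5-fold for RUNX1 in the window of 500 bp (2.55) and against the genome-wide rate (1.75).

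**Figure D1:**
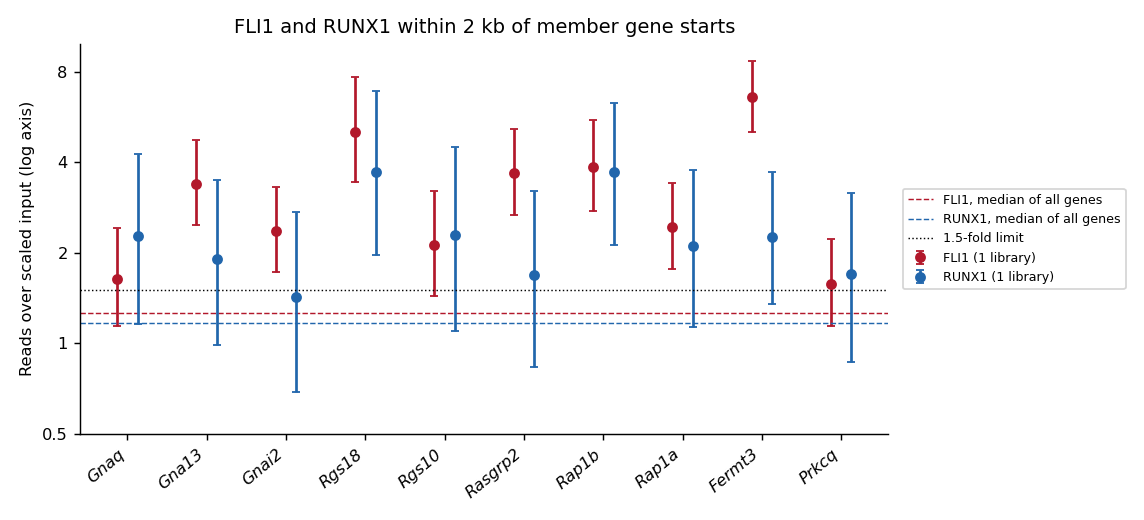
FLI1 (red) and RUNX1 (blue) reads over depth-scaled input reads within 2 kb of the start of each gene, on a log axis. Points are 1 library each, bars are exact 95% counting intervals, dashed lines are the medians of all protein-coding genes (1.26 and 1.17) and the dotted line is the 1.5-fold limit. Fermt3 is highest for FLI1 (6.58), and Rgs18 and Rap1b are highest for RUNX1 (3.71 and 3.70).

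The G-protein alpha subunits differed in how FLI1 lay at their starts. Gnaq, which encodes the subunit that activates phospholipase C beta behind the thrombin and thromboxane receptors, lies at chr19:16207321-16461953 on the plus strand. Its start window held 171 FLI1, 15 RUNX1 and 36 input reads, ratios of 1.64 (1.14 to 2.42) and 2.28 (1.16 to 4.27). Gna13, whose product acts on platelet shape, lies at chr11:109224145-109262683 on the plus strand. It held 422 FLI1, 15 RUNX1 and 43 input reads, with ratios of 3.39 (2.47 to 4.75) and 1.91 (0.985 to 3.50). The start of the annotated gene Gm11696 is also within 2 kb, so the reads of the window cannot be given to Gna13 alone. Gnai2 encodes the subunit through which an ADP receptor lowers cyclic AMP, and lies at chr9:107516461-107537673 on the minus strand. It held 315 FLI1, 12 RUNX1 and 46 input reads, with ratios of 2.37 (1.73 to 3.30) and 1.43 (0.688 to 2.74). In this window the FLI1 interval of Gna13 does not overlap that of Gnaq, while Gnai2 overlaps both. Within 500 bp of the start the intervals of Gna13 and Gnaq overlap, and that of Gnai2 (0.747 to 2.54) lies below that of Gna13 (3.28 to 24.7).

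The RGS genes also stood apart from each other. Rgs18, which encodes an RGS protein abundant in MK and platelets, lies at chr1:146599813-146622565 on the minus strand. Its start held 409 FLI1, 19 RUNX1 and 28 input reads, the ratios being 5.05 (3.44 to 7.69) for FLI1 and 3.71 (1.96 to 6.89) for RUNX1. These are at percentiles 98.8 and 98.3 of all genes. The window has a GC content of 33.2%, compared with 45.7% to 59.9% at the other 9 starts. Rgs10, another RGS gene expressed in platelets, lies at chr7:135517135-135562272 on the minus strand and held 190 FLI1, 13 RUNX1 and 31 input reads. Its ratios were 2.12 (1.44 to 3.20) and 2.29 (1.10 to 4.51), so its FLI1 interval ends below that of Rgs18. Within 500 bp of the start it overlaps that of Rgs18, with 1.19 to 6.82 against 5.66 to 24.1.

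Of the genes of the Rap1 switch, Rasgrp2 encodes CalDAG-GEFI, the exchange factor that loads Rap1 with GTP when calcium rises. It lies at chr19:6399340-6415216 on the plus strand, and its start held 447 FLI1, 13 RUNX1 and 42 input reads. FLI1 was at 3.68 (2.68 to 5.17) and RUNX1 at 1.69 (0.834 to 3.22). Rap1b, the main Rap1 protein of platelets, lies at chr10:117251527-117282991 on the minus strand and held 413 FLI1, 25 RUNX1 and 37 input reads. Both of its ratios were high, 3.86 (2.75 to 5.55) for FLI1 and 3.70 (2.13 to 6.31) for RUNX1. Rap1a, its close relative, lies at chr3:105530185-105604248 on the minus strand and held 309 FLI1, 17 RUNX1 and 44 input reads. Its ratios of 2.43 (1.76 to 3.41) and 2.11 (1.13 to 3.78) were lower, and in both libraries the intervals of Rap1a and Rap1b overlap.

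Fermt3 and Prkcq lie at opposite ends of the order by FLI1 ratio to input within 2 kb. Fermt3 encodes kindlin-3, which binds integrin tails together with talin, and lies at chr19:7073448-7093959 on the minus strand. Its start held 1104 FLI1, 24 RUNX1 and 58 input reads. The FLI1 ratio of 6.58 (5.05 to 8.72) is at rank 83 of all genes, and the RUNX1 ratio was 2.26 (1.35 to 3.70). Prkcq encodes protein kinase C theta, a kinase that diacylglycerol activates, and lies at chr2:11093740-11222853 on the plus strand. It held 206 FLI1, 14 RUNX1 and 45 input reads at its start, with ratios of 1.58 (1.14 to 2.23) and 1.70 (0.863 to 3.16). In falling order of the FLI1 ratio the genes were Fermt3, Rgs18, Rap1b, Rasgrp2, Gna13, Rap1a, Gnai2, Rgs10, Gnaq and Prkcq. No gene could be told apart from its neighbours in this order, since their intervals overlap, whereas in this window the interval of Fermt3 lies above those of the 6 genes from Gna13 downwards. The order depended on the window and on the use of input or the genome-wide rate as reference. Within 2 kb FLI1 was at 10.1 times the genome-wide rate at Fermt3, 4.09 at Rasgrp2, 3.86 at Gna13 and 3.78 at Rap1b. Prkcq was then at 1.89, above Rgs10 (1.74) and Gnaq (1.57). Within 500 bp of the start the FLI1 ratio was 13.7 (4.58 to 67.4) at Rap1b, 10.9 (5.66 to 24.1) at Rgs18, 7.88 (3.28 to 24.7) at Gna13 and 7.31 (4.2 to 13.9) at Fermt3, whose interval then lies above those of Gnai2 and Prkcq alone. Gnai2 was at 1.34 (0.747 to 2.54) and Prkcq at 1.33 (0.730 to 2.60) there. Gnaq was at 5.18 (1.31 to 44.7) for FLI1 and 19.2 (3.65 to 189) for RUNX1, ratios that rest on 30 FLI1, 7 RUNX1 and 2 input reads. These FLI1 reads at Gnaq were only 1.10 times the genome-wide rate, and the RUNX1 reads 4.09 times. Rap1b was at 16.4 (4.10 to 94.3) for RUNX1, with 9 RUNX1 and 3 input reads, and its FLI1 ratio rests on the same 3 input reads. As multiples of the genome-wide rate, FLI1 within 500 bp was at 10.4 at Rgs18, 10.1 at Fermt3 and 6.55 at Rasgrp2. Rap1b was then at 4.35, Gna13 at 4.17, Gnai2 at 2.12 and Prkcq at 1.98, all above Gnaq.

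Bins of 400 bp show where in the territories these reads lay. A bin was called when its reads were at least 3 times the expected number, which is the highest of the scaled input in the bin, the scaled input per bin over the surrounding 10 kb and the genome-wide rate. For RUNX1 at least 6 reads were also required. The intervals of these folds are exact Poisson intervals of the FLI1 or RUNX1 reads with the expected number held fixed. They leave out the error of the input, which is large where a region held few input reads, and are therefore too narrow. The territories of the 10 genes hold 2634 bins, and 93 of them (3.53%) were called for FLI1, compared with 0.724% of the bins in the territories of all protein-coding genes. Rap1b alone held 22 of these bins, and without it 71 of 2456 bins (2.89%) were called. For RUNX1 17 bins (0.645%) were called, compared with 0.126% over all genes, and 10 (0.407%) without Rap1b. A FLI1 bin was called within 2 kb of the start at 7 of the 10 genes, all but Gnaq, Rgs10 and Prkcq, compared with 36.1% of all genes. The study lists a FLI1 binding site within 2 kb of the start of Prkcq, so the missing call there holds for this bin rule alone. Each of the 10 territories held a FLI1 bin, as did 62.4% of all territories, which differ in length. A RUNX1 bin was called in 7 of the 10 territories, compared with 24.1% of all. The territories without one were those of Rgs18, Rasgrp2 and Prkcq. Fermt3 was the 1 gene with a RUNX1 bin within 2 kb of its start, which 6.31% of all genes had.

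**Figure D2:**
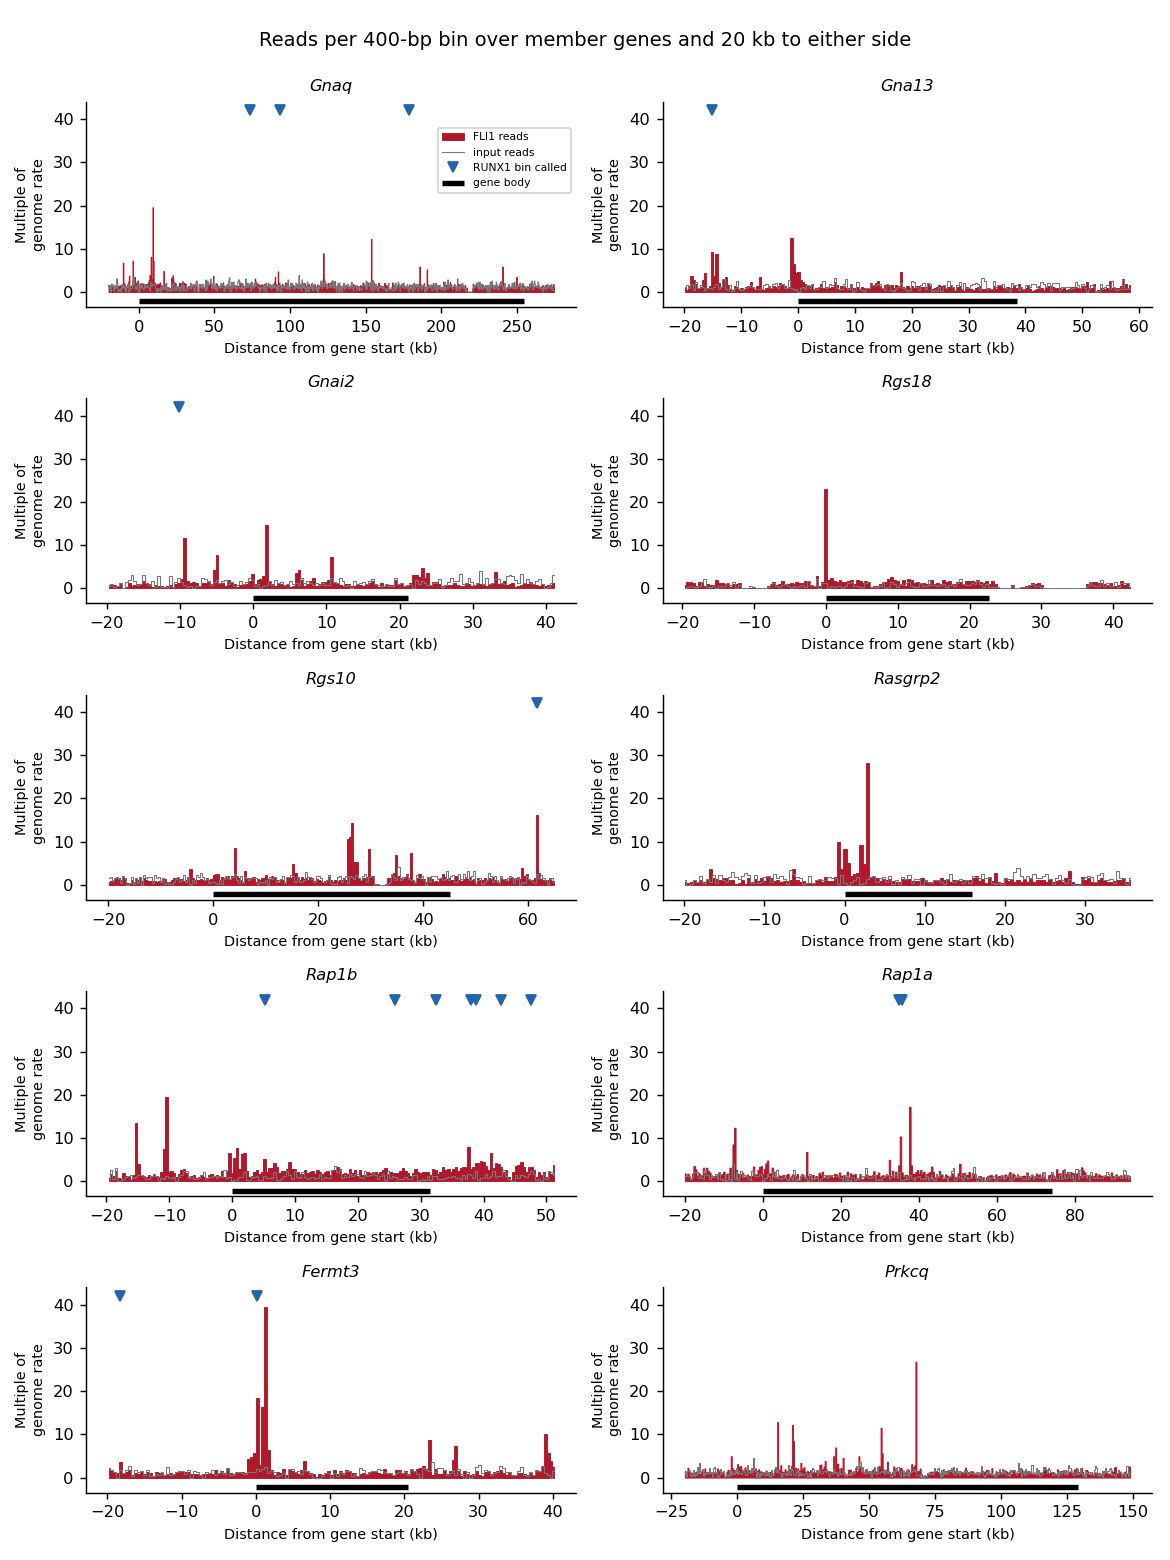
FLI1 reads (red) and input reads (grey line) per 400-bp bin, as multiples of the genome-wide rate of each library, against the distance from the gene start in kb, with upstream to the left. Black bars are gene bodies and blue triangles are bins called for RUNX1. FLI1 stands at the start in Rgs18 and Fermt3, inside the gene in Prkcq, Gnaq and Rgs10, and in Rap1b its bins run on past the end of the gene.

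Adjoining called bins were joined into 67 FLI1 regions, of which 10 had their summit within 2 kb of the start and 57 farther away. By place, 38 summits were in introns, 1 in an exon, 16 upstream of the gene and 12 downstream of it. For 49 of the 67 regions the nearest start of a protein-coding gene was that of the gene itself. The median FLI1 fold over the expected reads was 6.34 at the starts and 4.49 farther away and the largest fold was 17.3 and 16.9, respectively.

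**Figure D3:**
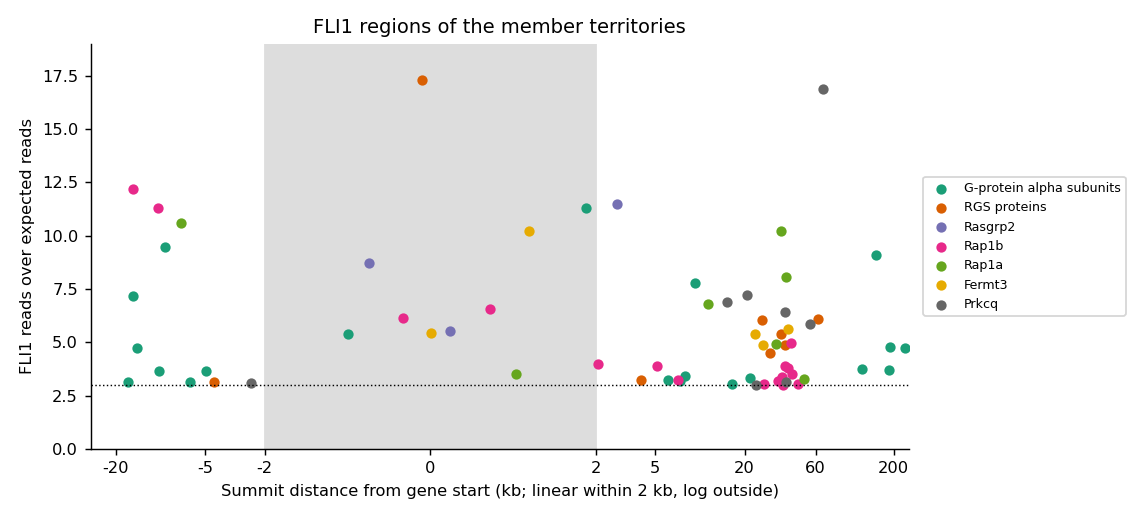
FLI1 reads over expected reads in each of the 67 FLI1 regions, against the distance of its summit from the gene start in kb. The distance axis is linear within 2 kb of the start (grey) and logarithmic outside, colours give the gene or gene group, and the dotted line is the 3-fold limit. The highest points are Rgs18 at its start (17.3) and Prkcq 67615 bp downstream of its start (16.9).

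In Rgs18 FLI1 was called in 1 place. Its territory of 156 bins had a single called bin, with the summit 93 bp upstream of the start and 251 FLI1, 5 RUNX1 and 5 input reads, 17.3 times the expected FLI1 reads (15.3 to 19.6). This bin is the one whose window, printed above, holds 2 RUNX motifs. Rgs10 had the opposite layout, with 7 regions and none within 2 kb of the start. Its widest region spans 4 bins in an intron, 26270 bp downstream of the start, and held 449 FLI1, 12 RUNX1 and 22 input reads at 6.04-fold (5.49 to 6.63). A region 61799 bp downstream of the start and beyond the gene held 176 FLI1, 7 RUNX1 and 10 input reads, and was called for both factors at 6.08-fold and 3.83-fold. The nearest protein-coding start to it is that of BC017158, at 58789 bp.

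Prkcq, lowest in FLI1 ratio to input within 2 kb of its start, held one of the strongest FLI1 regions of the set inside the gene. The bin 67615 bp downstream of the start held 293 FLI1 reads and 6 input reads, 16.9-fold (15 to 18.9), with 1 RUNX1 read. Of its 8 regions, 7 were intronic. They included those at 20924 bp, with 225 FLI1, 8 RUNX1 and 10 input reads at 7.20-fold, at 15245 bp with 140 FLI1 reads at 6.91-fold and at 54609 bp with 187 FLI1 reads at 5.87-fold. An upstream region 2481 bp from the start held 54 FLI1 reads at 3.11-fold, just past the limit.

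Gnaq, which had no called bin within 2 kb of its start, had 12 regions over a long gene, of which 10 were intronic. The strongest by reads lies 9251 bp downstream of the start and held 293 FLI1, 6 RUNX1 and 13 input reads, 7.79-fold (6.92 to 8.73). Another lies 153741 bp downstream with 134 FLI1, 3 RUNX1 and 5 input reads, 9.11-fold (7.63 to 10.8), and is nearer to the start of Gna14, another alpha subunit gene, at 149095 bp. In Gna13 a region of 4 bins spread over the start, with its summit 997 bp upstream and within Gm11696, and held 306 FLI1, 10 RUNX1 and 9 input reads at 5.39-fold. A bin 15164 bp upstream of Gna13 was called for both factors, with 101 FLI1 reads at 7.15-fold and 6 RUNX1 reads at 6.73-fold (2.47 to 14.6). In Gnai2 the strongest region was in an intron 1885 bp downstream of the start, with 160 FLI1, 2 RUNX1 and 3 input reads at 11.3-fold (9.64 to 13.2). A bin 9355 bp upstream of the start held 128 FLI1, 5 RUNX1 and 3 input reads at 9.45-fold.

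Rasgrp2 had 3 FLI1 regions, and the highest lay just inside the gene. It spans 3 bins with its summit 2788 bp downstream of the gene start and held 462 FLI1, 11 RUNX1 and 8 input reads, 11.5-fold (10.5 to 12.6). The annotation gives transcripts of Rasgrp2 that start 2362 and 2378 bp into the gene, nearer to this summit. Within 500 bp of the latter lay 389 FLI1 reads, 14.2 times the genome-wide rate, and the windows of both starts hold nearly the same reads. Within 500 bp of the first start lay 179 FLI1 reads, 6.55 times the rate, and around the starts annotated 1207 to 1283 bp into the gene 64 to 68 reads, 2.34 to 2.49 times the rate. RUNX1 had 11 reads (6.42 times its rate) around the start at 2378 bp and 2 reads (1.17 times) around the first. The other regions, 732 bp upstream and 242 bp downstream of the gene start, held 108 and 146 FLI1 reads at 8.72-fold and 5.55-fold. No RUNX1 bin was called in the territory.

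Fermt3 held the most FLI1 reads of any region in the set. The 3 bins whose summit is 1199 bp downstream of the start, in an intron, had 678 FLI1, 10 RUNX1 and 22 input reads, 10.2-fold (9.43 to 11). The next region, 4 bins with the summit 8 bp downstream of the start in an exon, had 362 FLI1, 11 RUNX1 and 23 input reads, 5.44-fold (4.89 to 6.03). Within it the bin over the start was called for RUNX1 with 7 reads, 4.79-fold (1.93 to 9.87). The other 3 FLI1 regions of this gene-dense territory lie within 148, 161 and 23 bp of the starts of Fkbp2, Dnajc4 and Trpt1, and so at other promoters.

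Rap1a had 7 FLI1 regions, and the one at its start was weak. A bin 1039 bp downstream of the start held 45 FLI1, 3 RUNX1 and 3 input reads at 3.50-fold (2.55 to 4.68). Higher folds lay 7309 bp upstream, with 135 FLI1, 1 RUNX1 and 2 input reads at 10.6-fold (8.89 to 12.5), and in introns. The summit of the upstream region is close to the edge of its bin, so this fold depends on the grid. The 400 bp centred on that summit held 218 FLI1, 2 RUNX1 and 11 input reads. The intronic region 37704 bp downstream held 228 FLI1, 1 RUNX1 and 9 input reads at 8.06-fold, and that 35326 bp downstream held 113 FLI1, 4 RUNX1 and 1 input read at 10.2-fold. Bins on both sides of the latter were called for RUNX1, with 6 reads each.

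Rap1b had the most regions of the set, 16 for FLI1 and 7 for RUNX1. Of its 178 bins 12.4% were called for FLI1, at percentile 99.9 of all territories. The strongest were upstream, at 10453 bp with 296 FLI1, 4 RUNX1 and 7 input reads at 11.3-fold (10 to 12.6), and at 15178 bp with 146 FLI1, 0 RUNX1 and 4 input reads at 12.2-fold (10.3 to 14.4). The count of 0 RUNX1 reads in that bin allows up to 4.90 times its expected reads by the exact Poisson interval. At the start, regions 328 bp upstream and 723 bp downstream held 71 and 143 FLI1 reads at 6.13-fold and 6.55-fold, with 4 and 6 RUNX1 reads. Beyond the end of the gene lay 8 weaker FLI1 regions at 3.00-fold to 4.97-fold and 5 of the 7 RUNX1 regions. The nearest protein-coding start to each of the 8 is that of Nup107, a nuclear pore gene, 7791 to 19745 bp away. Of the 16 FLI1 summit windows of Rap1b 6 held the ETS motif. Of its 7 RUNX1 summit windows 0 held the ETS motif and 0 the RUNX motif.

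The level between the called bins was also raised around Rap1b. In the bins of its territory called for neither factor and with at least 1 input read, FLI1 was at 2.07 and RUNX1 at 2.09 times the genome-wide rate, while the input was at 1.16 times. The folds of the Rap1b regions above are over input or the genome-wide rate and not over this raised level. Over scaled input FLI1 was at 1.69 (1.55 to 1.84), rank 1 of 21831 territories with at least 20 such bins, and RUNX1 at 1.69 (1.44 to 1.99), rank 35. The median over all territories was 0.874 for FLI1 and 0.871 for RUNX1. In windows of 10 kb, which count the reads of called bins too, FLI1 was at 2.04 to 3.22 and RUNX1 at 1.70 to 3.80 times the rate from the start to 60 kb downstream of it, and the input at 0.875 to 1.36 times. This stretch also takes in the start of Nup107. From 60 to 70 kb they were at 1.26 and 1.23 times. The highest RUNX1 window, 30 to 40 kb downstream and around the end of the gene, held 65 RUNX1, 832 FLI1 and 87 input reads. A further FLI1 maximum of 3.32 times lay 80 to 90 kb upstream, where RUNX1 was at 2.51 times. These levels were examined after the called bins of Rap1b had been seen. Rgs18 and Rap1a also ranked high for FLI1 over input between called bins. Rgs18 was at 1.52 (1.35 to 1.71, rank 11) with an input of 0.758 times its rate. Rap1a was at 1.31 (1.23 to 1.40, rank 120) with an input of 1.08 times. As multiples of the genome-wide rate, FLI1 was at 1.21 in Rgs18 (rank 2108), 1.50 in Rap1a (rank 104) and 2.07 in Rap1b (rank 18).

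**Figure D4:**
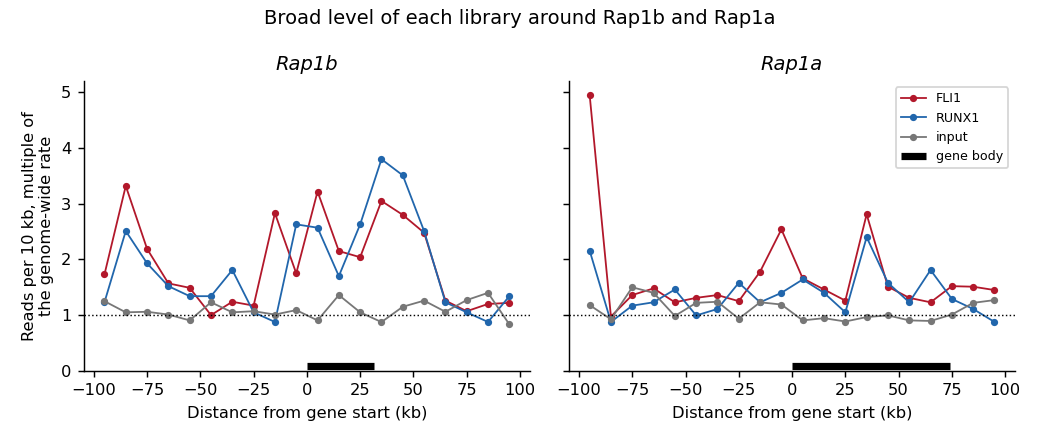
Reads of each library in windows of 10 kb around the starts of Rap1b and Rap1a, as multiples of the genome-wide rate, against the distance from the gene start in kb. Points are 1 window of 1 library, the black bar is the gene body and the dotted line is the genome-wide rate. FLI1 and RUNX1 stay between 1.70 and 3.80 over the 60 kb downstream of the start of Rap1b, and the input stays between 0.875 and 1.36.

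RUNX1 was then counted in the bins called for FLI1. The 93 FLI1 bins of the 10 territories held 232 RUNX1 reads and 377 input reads, a RUNX1 ratio over scaled input of 3.37 (2.85 to 3.98). In the 2384 bins not called for FLI1 and with at least 1 input read it was 1.03 (0.980 to 1.08), whereas FLI1 bins without input reads were kept. The FLI1 bins were chosen on low input as well as on FLI1 reads, so the ratio to the genome-wide RUNX1 rate is given beside it, 3.65 (3.19 to 4.15). On that measure the bins of the 10 territories not called for FLI1 were at 1.31 (1.26 to 1.37). The FLI1 bins of all protein-coding genes were at 3.09 and their other bins at 1.03. FLI1 bins in the territories of all protein-coding genes gave 2.92 (2.89 to 2.95) over input, and the other bins 0.901. Of the 93 bins 4 were themselves called for RUNX1 (4.30%), compared with 5.82% of all FLI1 bins. They lay in Gna13, Rgs10, Rap1b and Fermt3. At the 10 regions within 2 kb of the start the RUNX1 ratio was 4.14 (2.87 to 5.94) and at the 57 farther away 3.18 (2.62 to 3.84), intervals that overlap. Of the distant regions 11 held no RUNX1 read. Among the genes the ratio ran from 2.21 (1.23 to 3.84) in Prkcq to 7.96 (3.47 to 19) in Rasgrp2, which rests on 16 RUNX1 and 11 input reads. Over the genome-wide rate it ran from 2.78 in Prkcq to 7.31 in Rgs18, whose single bin held 5 RUNX1 reads, and was 3.90 in Rasgrp2.

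The 17 RUNX1 regions were single bins of 6 or 7 reads. Of these, 16 lay away from the start and 7 in introns, and 4 were also called for FLI1. Reads of both strands were present in each of them. Where both ends of a fragment are among the deposited reads, 6 reads stand for fewer fragments. A RUNX motif was in 2 of their 17 summit windows (11.8%), compared with 16.7% of RUNX1 summits in all territories and 8.07% of windows taken at regular steps over all territories.

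The share of FLI1 summits with ETS letters was near that over all genes. The ETS motif was in 38 of 67 windows of 100 bases (56.7%), in 59.7% of 19852 FLI1 summits in the territories of all protein-coding genes, in 16.4% of windows 500 bp to either side of the 67 summits, in 10.7% of windows at regular steps and in 19.8% of windows at all gene starts. The RUNX motif was in 17 of the 67 (25.4%), compared with 17.4% of all FLI1 summits and 5.22% of the windows to either side. The GATA motif, AGATAA or TGATAA, was in 13.4% and in 12.8% of all FLI1 summits, and the NF-E2 motif TGAGTCA in 2.99% and 4.40%. The core GGAA, which the ETS motif contains, was added after the values were seen and was in 95.5% of the 67, 93.9% of all FLI1 summits and 64.8% of windows at regular steps. Both strands were searched for each motif.

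The other genes of the pathway give the setting of the 10. Of 75 genes listed by role, 74 were found in the annotation, and FLI1 reached 1.5-fold at the start of 42 of them, with a median ratio of 1.85. RUNX1 reached it at 30, with a median of 1.19. Over all protein-coding genes 39.9% reached this fold for FLI1 and 33.6% for RUNX1, shares to be set beside each count below. The G-protein alpha, beta and gamma subunits counted 11 of 17 for FLI1 and 10 for RUNX1, with a FLI1 median of 1.85. Gnai3, an inhibitory alpha subunit, was highest at 5.37, followed by Gng11 at 4.23 and Gna15 at 4.05, and Gna11, the nearest relative of Gnaq, was lowest at 0.795. Of RGS proteins and chaperones 4 of 9 were past the fold for FLI1 and 0 for RUNX1, with a FLI1 median of 1.47. Rgs2 (2.23), Rgs1 (2.10) and Gpsm3 (2.02) led them and Rgs6 was at 0.759, so that none reached the 5.05 of Rgs18. For RUNX1 Rgs2 was at 1.49 and Gpsm3 at 1.48, just under the fold.

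Effectors of G proteins counted 9 of 16 for FLI1 and 8 for RUNX1, with a FLI1 median of 2.13. Rock1, which encodes a kinase that promotes myosin contraction, had a ratio of 4.55, Arhgef1 had 3.93 and Pik3cg, which encodes a phosphoinositide 3-kinase that beta-gamma subunits activate, had 3.18. Adcy7, an adenylyl cyclase gene, was lowest at 0.662. Of the other Rap GTPases, exchange factors and GTPase-activating proteins, 9 of 15 were past the fold for FLI1 and 6 for RUNX1, with a FLI1 median of 2.02. Rapgef6, Rap2b and Rap2c led with ratios of 3.86, 3.54 and 3.31. Rap1gap, which turns Rap1 off, was lowest at 0.521. Of the relatives of Rasgrp2, Rasgrp1, best known from T cells, was at 0.661, Rasgrp3 at 1.16 and Rasgrp4 at 2.02.

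Of the other Rap effectors, kindlins and talins 4 of 9 were past the fold for FLI1 and 2 for RUNX1, with a FLI1 median of 1.26. Tln1, the talin of platelets, had a ratio of 3.44, Krit1 had 3.11 and Rap1gds1 had 2.74. The other kindlin genes, Fermt1 and Fermt2, were at 0.809 and 1.26, compared with 6.58 at Fermt3. Of the other protein kinase C isoforms and the related Prkd2, 5 of 8 were past the fold for FLI1 and 4 for RUNX1, with a FLI1 median of 2.44. Prkd2, Prkce and Prkci had ratios of 3.60, 3.25 and 3.25, and Prkcz was at 0.578.

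**Figure D5:**
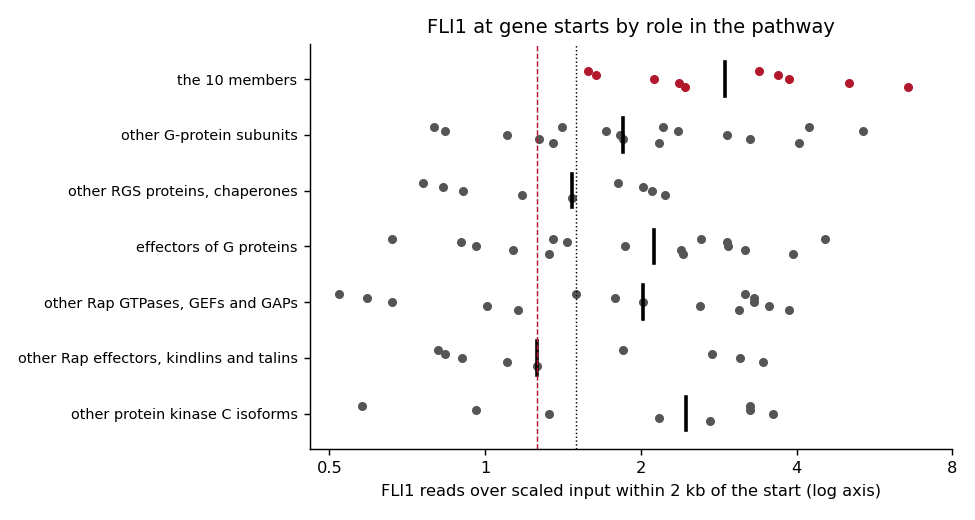
FLI1 reads over scaled input within 2 kb of the start for the 10 genes (red) and the other genes of the pathway by role (grey), on a log axis. Each point is 1 gene, black bars are medians, the dashed line is the median of all protein-coding genes (1.26) and the dotted line the 1.5-fold limit. The 10 genes range from 1.58 to 6.58, and the other groups have medians from 1.26 to 2.44.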

How the data were processed

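FLI1 and RUNX1 ChIP-seq and input reads of mature MK came from 1 library each, with precipitates pooled before sequencing. The authors mapped the reads to mm9 with Bowtie and deposited read positions and strands (other than counts or a signal), and removed repeated positions from the ChIP files. In the deposited input 3.24% of reads repeated a position and were left out. Their processing notes also list MACS 1.4 and SICER 1.1, which were not used here. The labels and the methods differ on the embryonic day, the DNA amount, the library kit and the shearing of the input. In the methods the input control is described with chromatin cut by micrococcal nuclease, and the FLI1 and RUNX1 chromatin as sonicated. All ratios to input rest on this input library, and the effect of its preparation on them was not tested.

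Reads were placed 75 bp downstream of their 5′ end and scaled by total reads (Python 3.11.15, NumPy 2.4.6, SciPy 1.17.1). Gene models are GENCODE M1 on mm9. Of 4000 read sequences checked per ChIP library, 99.3% and 99.2% matched this genome at their positions. Ratios to input reads have exact Clopper-Pearson 95% intervals and folds over expected reads or the genome-wide rate exact Poisson intervals of the ChIP reads alone. Counts past a fold of 1.5 at starts and 3 in bins are given without a test. The genes, lists and folds were chosen with earlier results of these data known. All 10 genes are named, and of each list the 3 genes highest and the 1 lowest for FLI1. Rasgrp1, Rasgrp3, Rasgrp4 and Fermt2 are also named and were chosen after their values were seen. Regions named were chosen by reads at and away from the start, and further ones after their values were seen. Code was tested on simulated data. Ric8a and Ahsp were not found under these names.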

Additional observations from a re-analysis of the deposited data

How the results depend on the processing

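Other settings gave 72 recomputed summed ratios and counts. Of these, 61 stayed within 1.5 times the count or within the interval of the ratio, and 11 moved further. A change of direction was scored for the summed ratios alone, and 0 of them changed direction. The count of 93 FLI1 bins became 209 with a bin fold of 2, 38 with a bin fold of 5 and 170 with the genome-wide rate in place of the input. It became 37 once FLI1 was thinned to RUNX1 depth, a setting where a bin also needed at least 6 FLI1 reads. The 17 RUNX1 bins became 10 with a bin fold of 5, 11 with a territory of 10 kb, 49 with plus-strand reads alone and at least 3 of them, and 10 without Rap1b, a setting chosen after seeing the data. The summed FLI1 ratio of 3.36 became 2.55 with a GC correction and 4.98 with a window of 500 bp, where the summed RUNX1 ratio of 2.23 became 3.80. GC-corrected values are relative to the median of gene starts of similar GC content and not to input alone. The cause of these moves was not tested. Of the ratios of single genes, that of Rasgrp2 for RUNX1 fell to 0.995 in the window of 500 bp, and that of Rgs10 for FLI1 to 0.883 when thinned. The thinning was 1 random draw of reads, in which some FLI1 ratios rose (Gna13 to 4.58, Gnaq to 2.13) and others fell. The window of 500 bp also moved the ratios of other single genes, several of which are given with the order of the genes. Fermt3 for FLI1 was at 10.1 against the genome-wide rate and at 4.93 with the GC correction, which put Rap1a at 1.67 and Prkcq at 1.13, and Gnai2 was at 1.67 when thinned. The genes past 1.5-fold at the start numbered 8 to 10 for FLI1 and 7 to 10 for RUNX1 under the other settings. At 0.684 RUNX1 reads per bin, 6 reads are 8.77 times the genome-wide rate, so that weaker RUNX1 sites were not detectable at the depth of the RUNX1 file used here. No paired analysis was possible because each group has 1 library.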
